A study of Mus musculus with 10 samples.

Results

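The S100 genes described here are 10 members of a family of small calcium-binding proteins that are transcribed in skin: S100a3, S100a4, S100a6, S100a7a, S100a8, S100a9, S100a10, S100a11, S100a14 and S100a16. They were taken by gene symbol from a deposited table of 18994 genes, in which all 10 were found, and all 10 passed the filter on low counts that left 15250 genes for testing. The mice were C57BL/6, 6 to 8 weeks of age, and their cheeks had been shaved 3 days before an intradermal injection of 5 µL on the right side. One group of 5 mice received 1 µg of MMP9, a secreted gelatinase, and the other group of 5 received the same volume of vehicle. Tissue was taken 4 hours later and its mRNA was sequenced as single-end reads of 50 bases. All mice of both groups were therefore shaved and injected, no uninjected skin enters the comparison, and neither the sex of the mice nor the make-up of the vehicle is stated in the labels.

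S100 proteins carry a pair of EF-hand loops, mostly form dimers, and expose a binding surface for partner proteins when calcium rises. Several are also released from stressed cells and act outside as alarmins through receptors such as RAGE and TLR4. In skin, S100A8 and S100A9 pair as calprotectin, a metal-binding antimicrobial protein that is stored by neutrophils and induced in stressed keratinocytes. S100A3 is a cysteine-rich protein of the hair cuticle, and S100A10 and S100A11 are partners of annexins in the membrane and the cornified envelope.

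Most of the family lies close together on mouse chromosome 3. In the gene order of the RefSeq annotation of GRCm38.p6, an earlier build than the GRCm39 named in the submitters' processing notes, the 12 protein-coding genes from S100a1 to S100a9 were all S100 genes. S100a11 and S100a10 stood next to each other, with 56 protein-coding genes between S100a9 and S100a11. S100a8 and S100a9 were direct neighbours, as were S100a7a and S100a8, and S100a14 and S100a16. S100a3 and S100a4 were separated by S100a2 alone.

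The promoters of S100a8 and S100a9 are shown because these neighbours varied together over the mice. Each line gives the 250 bases before the RefSeq start site, 5′ to 3′ on the strand of the gene. Capitals mark matches, on either strand, to TATAAA, to the C/EBP letters TTNCNNAA, to the AP-1 letters TGANTCA and to NF-kB letters made of GGG and CC with 5 free bases between them.
S100a8 (GRCm38.p6, chr3:90668821-90669070, plus strand): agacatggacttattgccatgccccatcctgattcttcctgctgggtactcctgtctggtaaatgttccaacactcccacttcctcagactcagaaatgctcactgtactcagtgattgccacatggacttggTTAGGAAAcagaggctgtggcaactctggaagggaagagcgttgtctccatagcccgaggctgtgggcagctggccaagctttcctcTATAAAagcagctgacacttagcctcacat
S100a9 (GRCm38.p6, chr3:90695722-90695971, minus strand): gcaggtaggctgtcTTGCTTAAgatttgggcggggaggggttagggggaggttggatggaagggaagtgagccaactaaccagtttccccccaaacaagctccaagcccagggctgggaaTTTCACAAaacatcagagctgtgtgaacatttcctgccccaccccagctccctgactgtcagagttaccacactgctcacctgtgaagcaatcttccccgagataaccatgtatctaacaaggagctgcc

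The S100a8 window held 1 match to the C/EBP letters and 1 to TATAAA, and the S100a9 window held 2 matches to the C/EBP letters. No match overlapped another, and neither window held the AP-1 or NF-kB letters. Among 32817 windows of the same length before RefSeq start sites, 36.8% held the C/EBP letters, 12.4% TATAAA, 6.75% the AP-1 letters and 45.8% the NF-kB letters. The matches describe letters in these windows and not binding.

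The 10 genes spanned a wide range of abundance. Levels are given in TPM, a share of all transcripts scaled by transcript length, so they can be compared between genes. The 10 together made up 0.602 to 0.807% of all TPM in a library. S100a11 was highest, at 2668 TPM on average over the 10 mice and 50th in the table. It was followed by S100a10 at 1091, S100a6 at 959, S100a4 at 931, S100a14 at 530.2, S100a16 at 494, S100a3 at 225, S100a9 at 92.5, S100a8 at 77.8 and S100a7a at 9.20 TPM. S100a11 exceeded S100a10, and S100a4 exceeded S100a14, in 10 of 10 libraries. S100a10, S100a6 and S100a4 were not separated by more than their spread. The log2 ratio of S100a10 to S100a6 was 0.17 with an SD of 0.25 over the libraries, and that of S100a6 to S100a4 was 0.06 with an SD of 0.25. S100a14 and S100a16 were also close, with a log2 ratio of 0.09 and an SD of 0.10. The place of S100a3 next to S100a9 was not stable, since the log2 ratio of 0.20 had an SD of 3.60.

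**Figure D1:**
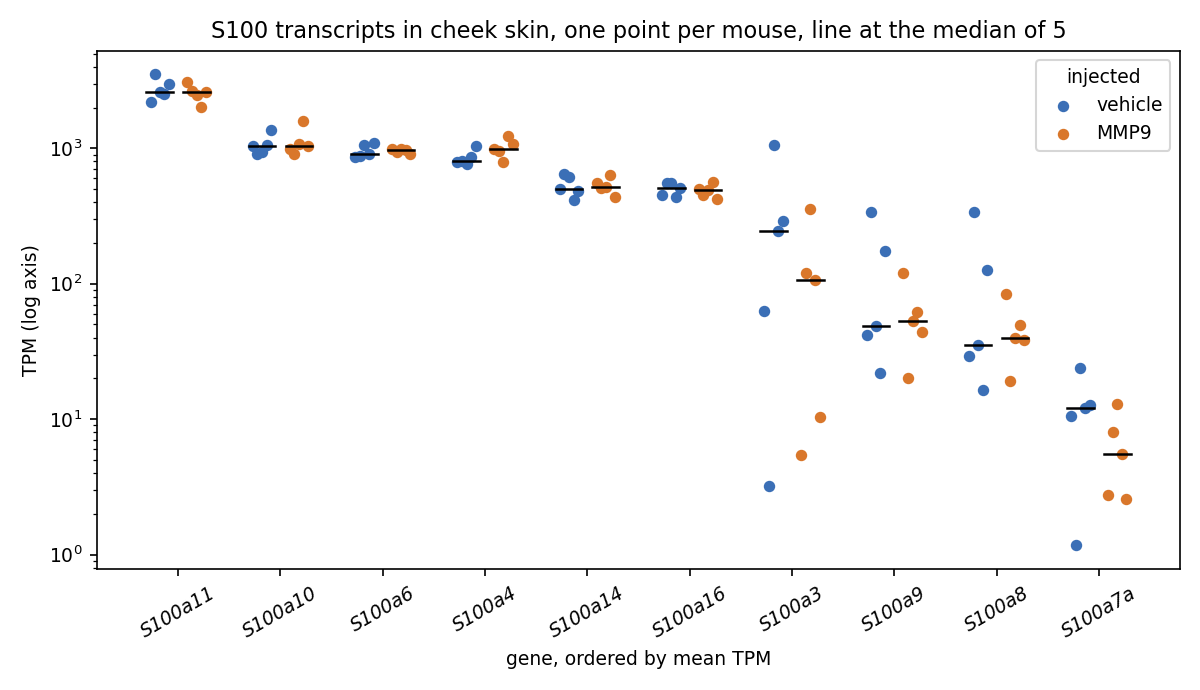
TPM of the 10 S100 genes on a log axis, with 1 point per mouse, vehicle in blue and MMP9 in orange, and a line at the median of each group of 5. The 6 most abundant genes keep within narrow bands, while S100a3 runs from 3.18 to 1051 TPM, and the groups overlap for every gene.

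The spread over the mice differed widely between the members. S100a6 varied least, from 869 to 1103 TPM, and its SD on the log2 scale was larger than that of only 5.54% of tested genes. S100a16 stood at the 14.9th percentile of that spread and S100a14 at the 34.6th. S100a11, S100a4 and S100a10 stood nearer the middle of all tested genes, at percentiles 38.8, 41.4 and 51.0. S100a3 stood at the 99.6th percentile, S100a8 and S100a9 each at the 98.9th and S100a7a at the 98.7th. In TPM, the highest library exceeded the lowest 330-fold for S100a3, 20.7-fold for S100a8, 20.3-fold for S100a7a and 16.9-fold for S100a9, against 1.27-fold for S100a6.

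Depth was even across libraries: total estimated counts were 17121541 to 19443099 per library. 3 libraries stood apart and touch results here. In MMP9 replicate 4, ribosomal protein genes took 12.9% of counts, against 6.59 to 7.44% in the other libraries. The 3050 tested genes with the shortest transcripts were higher there by a median of 0.52 on the log2 scale of counts scaled to library size (CPM) than in the other libraries, and the 3050 with the longest differed by a median of -0.38. On the log2 TPM scale the same medians were -0.03 and -0.79, so short transcripts were not raised there in TPM by their median. Single short transcripts could still be. All 10 S100 genes belong to those with the shortest. Of the 10, 3 (S100a4, S100a10 and S100a16) were highest in this library in TPM, and 5 were in CPM. In vehicle replicate 2 and MMP9 replicate 1, the summed TPM of 12 hair shaft keratin genes was 10.3 and 11.4, against 430.9 to 3407 in the other 8 libraries.

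No S100 gene passed the test between MMP9 and vehicle, and none had groups that failed to overlap. The design asks which transcripts of cheek skin differ 4 hours after the gelatinase. With edgeR's quasi-likelihood test, 0 of the 10 reached a Benjamini-Hochberg adjusted p of 0.05, where 0% of all 15250 tested genes did (0 genes, with 487 at an unadjusted p under 0.05), while limma called 0 and DESeq2 called 1 gene of the table, which was no S100 gene. At an unadjusted p under 0.05 there were 0 of 10 members, where 3.19% of all tested genes were, 2.07% higher and 1.12% lower. Groups did not overlap for 0 of 10, where the share was 0.564% of all tested genes. Log2 fold changes, MMP9 over vehicle, were above 0 in 5 members and below 0 in 5, where 53.7% of tested genes were above 0. The 95% interval lay within 1 of 0 on the log2 scale for 6 of 10 members (S100a4, S100a6, S100a10, S100a11, S100a14 and S100a16), where it did for 90.2% of tested genes. The median over the members was 0.01, beside a median of 0.01 over all genes tested. By an exact two-sided permutation test on log2(TPM + 1), whose smallest possible p is 0.00794, the p-values of the 10 members lay between 0.119 and 0.984 before any adjustment for 10 tests.

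S100a3, the hair cuticle member, differed more between mice than between groups. In vehicle mice 1 to 5 it stood at 62.5, 3.18, 1051, 246 and 289.6 TPM, and in MMP9 mice 1 to 5 at 5.46, 120.1, 356, 106 and 10.3 TPM. The lowest value of all was in a vehicle mouse, and the highest was in another vehicle mouse, so the MMP9 values lay inside the range of the vehicle values. The group levels were 330.4 ± 420.2 TPM under vehicle and 119.7 ± 142.5 TPM under MMP9 (SD, n = 5). MMP9 over vehicle, S100a3 differed by -1.41 on the log2 scale (standard error 1.23, 95% interval -4.10 to 1.29, edgeR adjusted p 0.981). Without vehicle replicate 3 it was -0.26, and without MMP9 replicate 3 it was -2.20.

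S100a7a, the mouse relative of the human psoriasin genes, followed nearly the same order over the mice at a much lower level. In vehicle mice 1 to 5 it stood at 10.6, 1.17, 23.7, 12.02 and 12.7 TPM, and in MMP9 mice 1 to 5 at 2.76, 7.99, 12.97, 5.51 and 2.56 TPM. As for S100a3, vehicle mouse 3 was highest and vehicle mouse 2 lowest. Vehicle mouse 2 held only 21.1 estimated counts of S100a7a. In CPM the gene ran from 1.15 in that mouse to 11.4 in vehicle mouse 3, a narrower relative range than in TPM. The levels were 12.04 ± 8.02 TPM under vehicle and 6.36 ± 4.31 TPM under MMP9 (SD, n = 5). S100a7a differed by -0.77 on the log2 scale (standard error 0.53, edgeR adjusted p 0.981). The difference was -0.41 without vehicle replicate 3, and -1.04 when either vehicle replicate 2 or MMP9 replicate 3 was left out. Reads shared between S100a7a and its relative S100a7l2 could be split in a way that the sources used here do not give. S100a7l2 did not follow the order of S100a7a: it was highest in MMP9 replicate 4 at 76.3 TPM and lowest in MMP9 replicate 1 at 20.9 TPM.

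Over the 10 mice, S100a3 and S100a7a had a Pearson r of 0.96 on log2(TPM + 1), with a permutation p of 5e-05 and an adjusted p of 0.00112 over the 45 pairs of members. Spearman's rho was 0.95 with a permutation p of 0.00012, adjusted to 0.0027. Without vehicle replicate 2 and MMP9 replicate 1, the mice farthest from the median of S100a3 and also those lowest in hair shaft keratins, r was 0.93. Within groups of 5 it was 0.97 in vehicle and 0.96 in MMP9. The pair thus varied together in both groups and without the lowest libraries.

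Genes of the hair follicle moved with S100a3. Likeness to S100a3 over the 10 libraries was ranked among 11203 tested genes with a mean of at least 5 TPM. All S100 genes and the fused S100-type genes described below, such as Tchh, were left out of this ranking. The most alike were the inner root sheath keratin genes Krt73 with an r of 0.986, Krt72 with 0.982 and Krt26 with 0.977. Vsig8 and Padi3 followed. Krt73 had 0.13 TPM in vehicle replicate 2, 0.17 in MMP9 replicate 1, 0.30 in MMP9 replicate 5 and 6.38 to 97.5 TPM in the other 7 libraries. S100a3 was likewise lowest in these 3 libraries. Padi3 encodes the peptidylarginine deiminase that converts arginines of S100A3 to citrulline. It stood at 9.96, 0.06, 71.0, 23.9 and 24.2 TPM in vehicle mice 1 to 5, and at 0.18, 6.33, 20.1, 4.82 and 0.54 TPM in MMP9 mice 1 to 5. The summed hair shaft keratins were highest in vehicle replicate 3, where S100a3 was highest too. In bulk tissue, fewer cells of a type and less RNA per cell cannot be told apart, and the part of hair follicle content in the values of S100a3 and S100a7a was not tested.

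**Figure D2:**
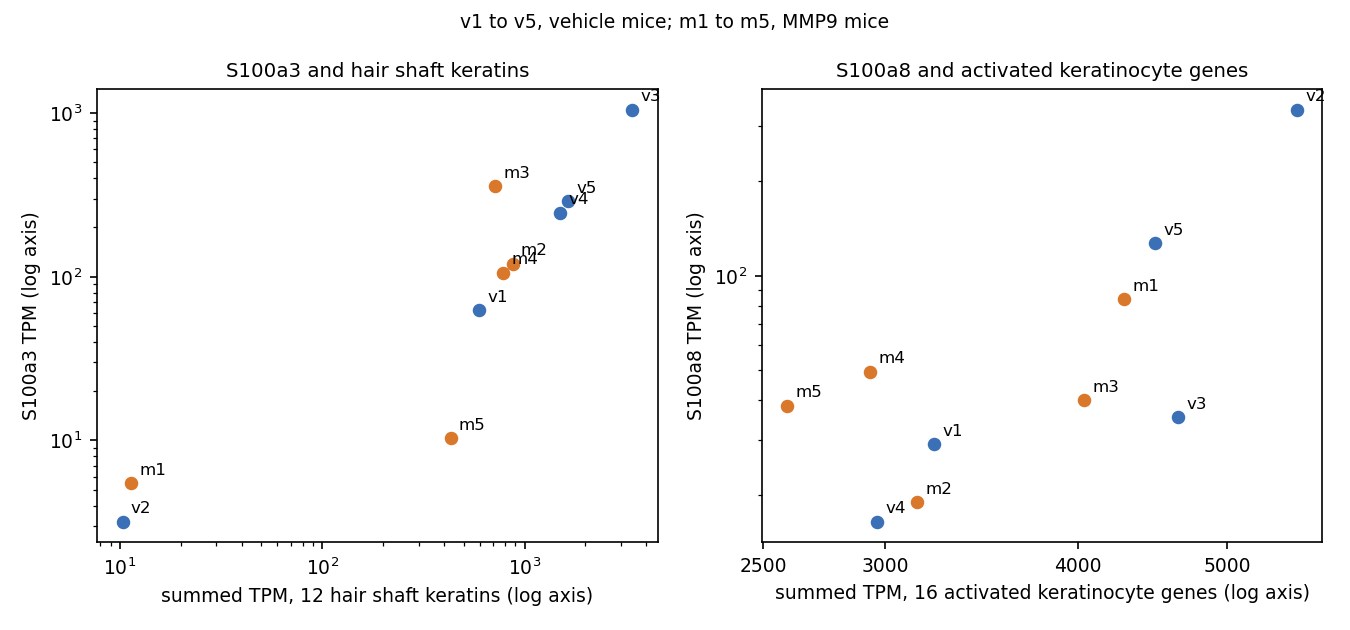
Left, S100a3 TPM against the summed TPM of 12 hair shaft keratin genes, and right, S100a8 TPM against the summed TPM of 16 activated keratinocyte genes, all on log axes, with 1 point per mouse (v, vehicle; m, MMP9). S100a3 is low in v2 and m1, where the keratin sums are 10.3 and 11.4 TPM, and S100a8 is highest in v2, where the activated keratinocyte sum is 5550.0 TPM.

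Calprotectin transcripts were highest in vehicle mice 2 and 5. S100a8 stood at 29.0, 339, 35.3, 16.4 and 127 TPM in vehicle mice 1 to 5 and at 84.2, 19.0, 40.0, 49.4 and 38.5 TPM in MMP9 mice 1 to 5. S100a9 stood at 41.9, 337, 48.95, 21.99 and 175 TPM in vehicle and at 120.2, 20.0, 53.2, 62.3 and 44.3 TPM in MMP9. For both genes vehicle mouse 2 was highest, vehicle mouse 5 next and MMP9 mouse 1 the third, and the group medians were close: 35.3 and 40.0 TPM for S100a8, and 48.95 and 53.2 TPM for S100a9.

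The means differed more than the medians. S100a8 had 109.3 ± 135.7 TPM in vehicle and 46.2 ± 23.9 TPM in MMP9, and S100a9 had 125 ± 133 TPM and 60.0 ± 37.2 TPM (SD, n = 5). The log2 fold changes of -1.14 and -0.96 carried standard errors of 0.75 and 0.70, with an edgeR adjusted p of 0.981 for each. The 95% interval ran from -2.79 to 0.51 for S100a8 and from -2.51 to 0.58 for S100a9. Without vehicle replicate 2 the values were -0.06 and -0.16. Both intervals include 0 and reach much further below it than above it.

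S100a8 and S100a9 held a nearly fixed ratio. The ratio of S100a8 to S100a9 TPM was between 0.692 and 1.01 in the 10 libraries. It was highest in vehicle replicate 2, where both were highest, and 0.949 in MMP9 replicate 2, where S100a9 was lowest. Pearson's r on log2(TPM + 1) was 0.99 with a permutation p of 1e-05, the smallest that the resampling can give, and an adjusted p of 0.00045 over 45 pairs. Spearman's rho was 0.98 with a permutation p of 3e-05, adjusted to 0.00135. Without vehicle replicates 2 and 5, r was 0.98, and within groups it was 0.996 in vehicle and 0.997 in MMP9. The neighbour on their other side, S100a7a, had r values of -0.57 and -0.50 with S100a8 and S100a9, with permutation p-values adjusted to 0.378 and 0.415.

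The genes most like this pair included keratinocyte genes. For S100a8 they were Lce1h, Chil1, Krt16, Glrx and Degs2, with r from 0.90 to 0.91, and for S100a9 they were Krt16, Gsdmc, Chil1, Apol7a and Serpinb12, with r from 0.89 to 0.92, over 10 libraries and 11203 genes compared. Lce1h encodes a late cornified envelope protein. Krt16, a keratin of activated keratinocytes, stood at 70.4, 519, 204, 30.7 and 256 TPM in vehicle mice 1 to 5 and at 247, 48.3, 95.6, 186 and 68.8 TPM in MMP9 mice 1 to 5. As for S100a8, the highest values were in vehicle mice 2 and 5 and MMP9 mouse 1, and vehicle mouse 4 and MMP9 mouse 2 were lowest. Chil1, a chitinase-like gene, likewise peaked in vehicle replicate 2 at 102.4 TPM, against 7.03 to 37.7 TPM elsewhere.

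Neutrophil markers were measured beside the pair, and their summed TPM in vehicle replicate 2 was 27.9. Of 10 listed neutrophil genes, 6 passed the filter. The granule and surface genes Ly6g, Camp, Ltf and Ngp, under the filter, had 10.09, 16, 12 and 11 counts over all 10 libraries. Of those that passed, Csf3r and Cxcr2 had the most counts, 3756.62 and 1808.28, and Mmp8 the fewest, 233.85. The summed TPM of the 10 was 17.8 to 43.8 in vehicle and 18.3 to 47.2 in MMP9. The more abundant markers did not share a single order over the mice. Csf3r, the receptor for the neutrophil growth factor G-CSF, was 9.34 TPM in vehicle replicate 2 and reached 22.3 TPM in MMP9 replicate 3, where S100a8 was 40.0 TPM. The chemokine receptor gene Cxcr2 was lowest in MMP9 replicate 2 at 1.93 TPM and vehicle replicate 4 at 2.93 TPM, the libraries lowest in S100a8, and was 6.53 TPM in vehicle replicate 2. Cxcr2 was highest in vehicle replicate 5, MMP9 replicate 1 and MMP9 replicate 3, at 7.37, 7.31 and 7.20 TPM, and the first 2 of these came next after vehicle replicate 2 in S100a8. The listed genes Fpr2 and Fpr1 were instead highest in vehicle replicate 4, at 15.5 and 7.61 TPM, where S100a8 was lowest. In vehicle replicate 2 they were 6.9 and 3.77 TPM. Retnlg and Mmp8 were 0.33 and 0.41 TPM in vehicle replicate 2, and both were highest in MMP9 replicate 3, at 8.95 and 1.78 TPM. The activated keratinocyte list of 16 genes summed to 2965 to 5550.0 TPM in vehicle and 2592 to 4289.6 TPM in MMP9, with its highest value in vehicle replicate 2. In that list 15 genes were tested, 5 higher and 10 lower in MMP9, 0 called, with a median log2 fold change of -0.59 and 3 at an unadjusted p under 0.05, where 3.19% of all tested genes were. Its members with the smallest p were Il20, Krt6a, Gjb2 and Sprr2h, with log2 fold changes of -2.23, -0.72, -1.13 and -1.03. The part of keratinocyte activation or of neutrophils in the calprotectin values was not tested.

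The annexin partners S100a10 and S100a11 were abundant in every mouse. S100a10, which binds annexin A2 without needing calcium, stood at 1049, 907, 932, 1060.3 and 1374 TPM in vehicle mice 1 to 5 and at 983, 905, 1070.3, 1583 and 1046 TPM in MMP9 mice 1 to 5. MMP9 mouse 4 was highest and the groups overlapped. Its partner gene Anxa2 differed little between the groups, with 1397 ± 128 TPM under vehicle and 1371 ± 174 TPM under MMP9 (SD, n = 5). The ratio of S100a10 to Anxa2 TPM lay between 0.615 and 0.882 in 9 libraries and was 1.30 in MMP9 replicate 4. In that library ribosomal protein genes took 12.9% of counts, and the longest transcripts differed by a median of -0.79 on the log2 TPM scale. The part of this in the ratio was not tested. S100a10 differed by 0.22 on the log2 scale (standard error 0.27, edgeR adjusted p 0.981), and by -0.16 without MMP9 replicate 4.

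S100a11, a partner of annexin A1 and a component of the cornified envelope, stood at 2215, 3523, 2628, 2502.5 and 2967 TPM in vehicle mice 1 to 5. In MMP9 mice 1 to 5 it stood at 3071, 2639.9, 2482, 2037 and 2615 TPM. Vehicle mouse 2 was highest, as for S100a8, and MMP9 mouse 4 lowest on this scale. S100a11 differed by -0.05 on the log2 scale (standard error 0.14), and its 95% interval from -0.34 to 0.25 was the narrowest of the 10. Its r with S100a8 was 0.71, which did not pass over the 45 pairs (permutation p 0.0229, adjusted 0.244) and was 0.23 without vehicle replicates 2 and 5.

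S100a4 had the largest positive difference of the 10. This member is abundant in fibroblasts and leukocytes and binds the non-muscle myosin heavy chain encoded by Myh9. It stood at 786, 809.7, 760.4, 860.3 and 1033 TPM in vehicle mice 1 to 5 and at 982, 961, 791, 1242 and 1081 TPM in MMP9 mice 1 to 5. In 4 of 5 MMP9 mice it lay above the vehicle median of 809.7 TPM, and MMP9 mouse 4 was highest. The group levels were 850.05 ± 109 and 1012 ± 166 TPM (SD, n = 5). S100a4 differed by 0.38 on the log2 scale (standard error 0.22, 95% interval -0.11 to 0.87, edgeR adjusted p 0.981). Without MMP9 replicate 4 it was 0.10. The exact two-sided permutation test on log2(TPM + 1) gave p = 0.119 before adjustment, the lowest of the 10. Fibroblast markers summed to 2993 to 6004 TPM in vehicle and 4565 to 7147 TPM in MMP9. Of the 10 fibroblast genes tested, 10 were higher and 0 called, with a median log2 fold change of 0.15, where 53.7% of all tested genes were above 0. The log2 fold changes of Fbln1, Mfap5 and Pi16 were only 0.0005, 0.024 and 0.026. Their mean TPM was lower under MMP9 than under vehicle. Among leukocyte markers, 7 of 7 T and NK cell genes were higher and 0 called, with a median of 0.43, 3 at an unadjusted p under 0.05 (3.19% of all tested genes) and 2 whose groups did not overlap (0.564%). For dendritic and Langerhans cell genes 7 of 8 were higher, 1 was lower and 0 were called, with a median of 0.48, and for monocyte and macrophage genes 4 were higher, 6 lower and 0 called, with a median of -0.11. MMP9 replicate 4, highest in S100a4, had the lowest summed TPM of the MMP9 libraries in each of these lists. The sums there were 4565 TPM for fibroblast genes and 88.3 TPM for T and NK cell genes. They were 165.4 TPM for dendritic and Langerhans cell genes and 891.9 TPM for monocyte and macrophage genes. In that library the 3050 tested genes with the longest transcripts differed by a median of -0.79 on the log2 TPM scale. S100a4 is among the genes with the shortest transcripts. The part of transcript length in these sums was not tested. The part of fibroblasts and leukocytes in the S100a4 value was not tested.

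S100a6, which binds the calcyclin-binding protein encoded by Cacybp, was the steadiest member in TPM. In CPM it ran from 352.7 in vehicle replicate 2 to 589.8 in MMP9 replicate 4. It stood at 962.5 ± 107 TPM under vehicle and 956 ± 35.0 TPM under MMP9 (SD, n = 5), with values from 869 to 1103 and from 904 to 990.5 TPM. S100a6 differed by 0.08 on the log2 scale (standard error 0.15, 95% interval -0.25 to 0.42). On the log2(TPM + 1) scale the difference was -0.0029 and without MMP9 replicate 4 it was -0.08, so its sign carries no direction. Its genomic neighbours S100a5 and S100a7a were far less abundant, with 4.99 counts over all 10 libraries for S100a5.

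The epithelial members S100a14 and S100a16 varied together. S100a14 stood at 504, 649, 611, 417 and 482 TPM in vehicle mice 1 to 5 and at 550.45, 506, 515, 632 and 436 TPM in MMP9 mice 1 to 5. S100a16 stood at 449.6, 558, 554, 437 and 510.4 TPM in vehicle and at 499.8, 454, 494.8, 561 and 423 TPM in MMP9. For both genes vehicle mice 2 and 3 and MMP9 mouse 4 were the 3 highest, and vehicle mouse 4 and MMP9 mouse 5 the lowest. Pearson's r was 0.90 with a permutation p of 0.00065, adjusted to 0.00975, and Spearman's rho was 0.855 with a permutation p of 0.00274, adjusted to 0.0411. Without vehicle replicate 2 and MMP9 replicate 4, r was 0.83. The log2 fold changes were 0.10 and 0.07 with standard errors of 0.22 and 0.19 (edgeR adjusted p 0.983 and 0.986). Both took the other sign on the log2(TPM + 1) scale, at -0.0052 and -0.044, and without MMP9 replicate 4, at -0.16 and -0.18.

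**Figure D3:**
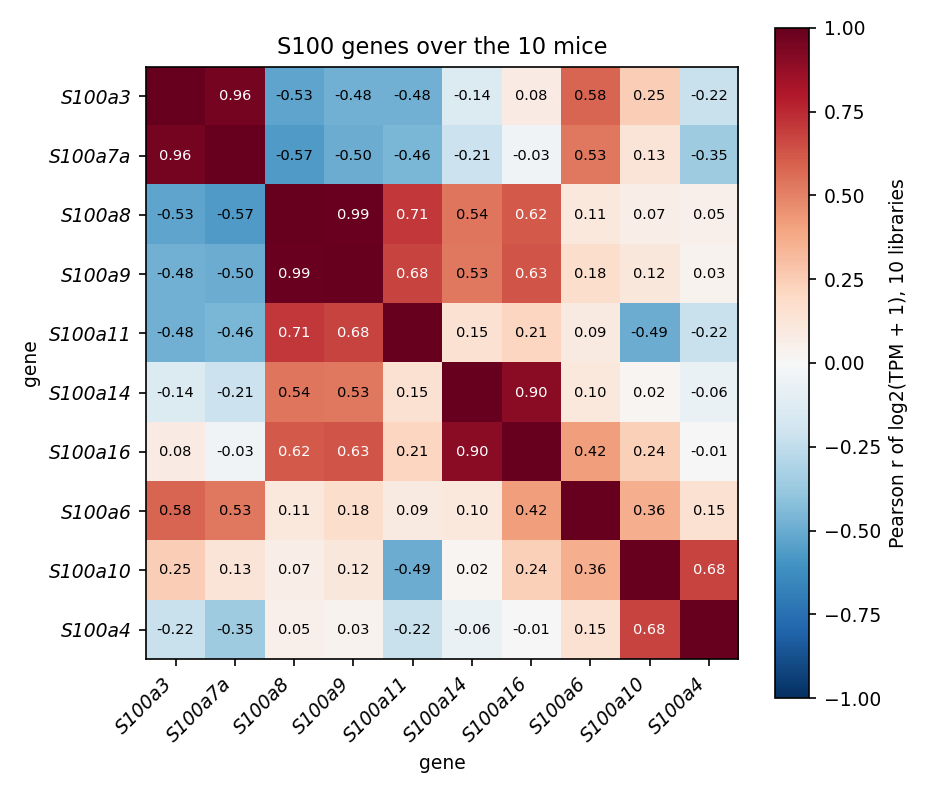
Pearson r of log2(TPM + 1) over the 10 libraries for each pair of S100 genes, from -1 (blue) to 1 (red). S100a8 with S100a9, S100a3 with S100a7a, and S100a14 with S100a16 are the pairs with r of 0.90 or more.

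These 3 pairs were the ones, of 45, that passed at an adjusted p of 0.05 by both Pearson and Spearman. Their r without MMP9 replicate 4 was 0.97 for S100a3 and S100a7a, 0.99 for S100a8 and S100a9, and 0.88 for S100a14 and S100a16. S100a4 and S100a10 had an r of 0.68 that did not pass (permutation p 0.0284, adjusted 0.244) and was 0.38 without MMP9 replicate 4. S100a8 and S100a9, and S100a14 and S100a16, are direct neighbours in the genome, while S100a3 and S100a7a are not. S100a3 and its near neighbour S100a4 had an r of -0.22 (permutation p 0.535, adjusted 0.893).

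**Figure D4:**
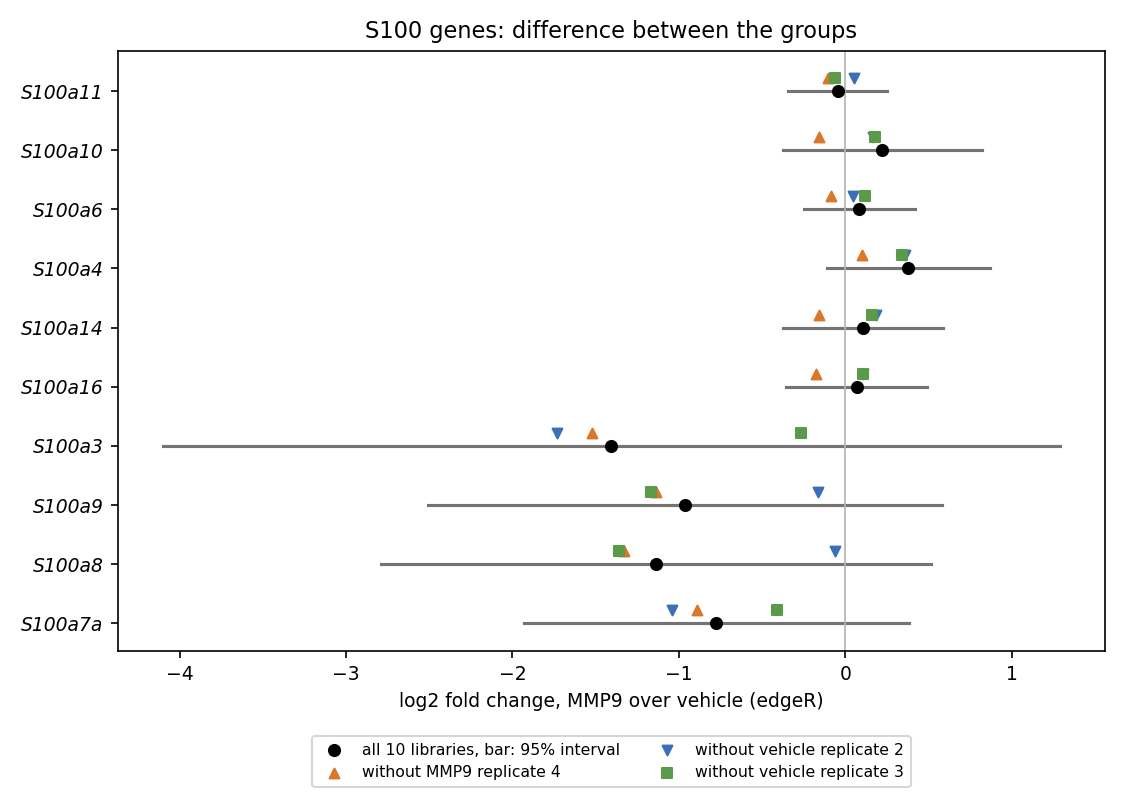
Log2 fold change of each S100 gene, MMP9 over vehicle, from edgeR with its 95% interval (black point and bar), and the value when MMP9 replicate 4, vehicle replicate 2 or vehicle replicate 3 is left out. All 10 intervals include 0, and the values of S100a8 and S100a9 move to -0.06 and -0.16 without vehicle replicate 2.

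None of a list of 7 other S100 genes passed either. The deposited table held 18 S100 symbols, more than the 10 members and this list cover. S100a1, a member that binds the calcium release channel of muscle, had 311 ± 27.1 TPM under vehicle and 296 ± 54.2 TPM under MMP9 (SD, n = 5), and S100a13 had 94.7 ± 11.2 and 107 ± 25.7 TPM. S100b, a marker of Schwann cells, had 10.012 ± 1.31 and 10.8 ± 1.82 TPM, and S100a7l2 had 35.8 ± 9.40 and 47.4 ± 21.1 TPM. These 4 were tested, 4 were higher and 0 called, with log2 fold changes of 0.06, 0.33, 0.19 and 0.58 in that order and an edgeR adjusted p of at least 0.981. S100a5, S100g and S100z were under the filter, with 4.99, 41 and 12 counts in total.

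Among the 7 fused S100-type genes, which join an S100-like domain to a long repeat region, 1 was higher, 6 were lower and 0 were called, with a median log2 fold change of -0.28. The members with the smallest p were Crnn, Tchh, Tchhl1 and Rptn, with log2 fold changes of -1.58, -1.49, -0.86 and -0.28 and standard errors of 1.00, 1.06, 0.97 and 0.34. Tchh, which encodes the trichohyalin of the inner root sheath, stood at 86.5, 3.05, 418, 143 and 161 TPM in vehicle mice 1 to 5 and at 3.77, 55.95, 169.6, 39.6 and 12.9 TPM in MMP9 mice 1 to 5. Crnn had 0.92 TPM in vehicle replicate 2 and 1.13 TPM in MMP9 replicate 1, and 4.01 to 129 TPM in the other libraries. Both were thus lowest in the same libraries as S100a3. Flg2, an epidermal member, had 142 ± 15.5 TPM under vehicle and 147 ± 44.2 TPM under MMP9 (SD, n = 5).

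No gene passed among the receptor genes and the intracellular partners of S100 proteins. Of 10 genes for S100 receptors and their partners, such as the adaptor Myd88 and the co-receptor Ly96, 5 were higher, 5 lower and 0 called, with a median of -0.02. Those with the smallest p were Mcam, Nptn, Alcam and Ager, with log2 fold changes of -0.13, 0.10, -0.11 and -0.21. Ager, the gene of RAGE, was low at 1.69 ± 0.35 and 1.41 ± 0.362 TPM, whereas Bsg, which encodes the S100A9 receptor basigin, had 571 ± 21.6 and 566 ± 27.7 TPM (SD, n = 5). Of 10 intracellular partner genes, 4 were higher, 6 lower and 0 called, with a median of -0.03. Padi3, Cacybp, Anxa1 and Anxa6 had the smallest p, with log2 fold changes of -1.97, 0.19, 0.15 and -0.08.

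Of 19 cytokine and signalling genes known to induce S100 alarmins, 18 were in the table and 15 were tested, 8 higher, 7 lower and 0 called, with a median log2 fold change of 0.0025. Tnf, Il1a, Nfkbiz and Osm had the smallest p, with log2 fold changes of 0.33, 0.21, -0.12 and 0.29 and standard errors of 0.25, 0.17, 0.15 and 0.47. The edgeR adjusted p was at least 0.981 for every gene of the family, receptor, partner and cytokine lists.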

How the data were processed

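Cheek skin RNA of 5 vehicle and 5 MMP9 mice was analysed, each library from a separately numbered mouse. The p-values measure the spread between these mice, and the labels name no batch. For each gene the table that the authors deposited holds estimated counts (60.8% not whole), FPKM and TPM. HISAT and the build GRCm39 are named in the submitters' processing notes, and the quantifier is not given in the sources used here. Deposited TPM were used for levels and FPKM were not used. Estimated counts were rounded, filtered with filterByExpr (15250 of 18994 genes kept, 99.95% of counts), scaled by TMM and then compared by edgeR's quasi-likelihood test (version 4.0.16, R version 4.3.3, Benjamini-Hochberg adjustment over all tested genes, threshold 0.05). CPM, the library-size-scaled counts, came from the same counts. Permutation tests used log2(TPM + 1), where a pseudocount understates changes of low genes, and correlations used 100000 resamples. Alternatives were DESeq2 1.42.0, limma 3.58.1, other scalings and filters, a replicate block and leaving out each mouse.

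The members and gene lists were chosen with earlier results of these data known. Of 205 list entries 202 matched, 3 through synonyms. Genes named from lists are the 4 with the smallest p, and genes alike are the 5 with the highest Pearson r. Other genes were named after their values were seen. Promoter windows are from RefSeq for GRCm38.p6, with no entry matched for S100a10 and S100a14.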

Additional observations from a re-analysis of the deposited data

Results flagged for a closer look

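Among 20 groups of 5 values, 10 genes in each treatment, 2 held a mouse set apart from the rest of its group by a gap of more than 0.71 of the group's range, Dixon's 95% critical value. For independent values with a normal distribution, chance sets apart a mouse in about 1 in 20 groups. The TPM values here were not on a log scale and some genes varied together, so that rate need not hold. S100a3 was 1051 TPM in vehicle replicate 3, with a gap of 0.727 of the range, and summed hair shaft keratins were highest in that library at 3407 TPM. S100a10 was 1583 TPM in MMP9 replicate 4, with a gap of 0.756 of the range, and ribosomal protein genes took 12.9% of counts there.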

How the results depend on the processing

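No gene passed at an adjusted p of 0.05 with edgeR, nor in any fit without 1 mouse (0 to 0 genes), and DESeq2 called 1 gene. The median log2 fold change of the 10 S100 genes was 0.01, and -0.167 to 0.052 without 1 mouse, the lowest without MMP9 replicate 4. With limma on log2(TPM + 1) the differences of S100a6, S100a14 and S100a16 were -0.0029, -0.0052 and -0.044, and with a pseudocount of 0.1 they were -0.0029, -0.0052 and -0.044. On log2(CPM + 1) the permutation differences of these 3 were 0.061, 0.059 and 0.019. Without 1 mouse the ranges were -0.084 to 0.13 for S100a6, -0.16 to 0.33 for S100a10, -0.16 to 0.19 for S100a14 and -0.18 to 0.14 for S100a16, each lowest without MMP9 replicate 4. For S100a11 the range was -0.11 to 0.053, highest without vehicle replicate 2. Without both libraries lowest in hair shaft keratins, chosen after seeing the data, S100a11 was 0.031 and S100a8 and S100a9 were -0.29 and -0.46. The cause was not tested. S100a3, S100a4, S100a7a, S100a8 and S100a9 kept their sign in all alternatives run. With a replicate block 0 genes were called (554 at an unadjusted p under 0.05, against 487), and S100a8 and S100a9 were -0.33 and -0.40. Same-numbered mice correlated at -0.186 to 0.443 in their deviations and 2 of 5 vehicle mice correlated best with their own number, so the numbers were not taken to pair mice. The 3 correlated pairs passed in all alternatives run. The share of counting error in the intervals was not separated from the spread between mice.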

Other observations

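Il1f6, which encodes the keratinocyte cytokine IL-36 alpha and was singled out after its values were seen, was high in some of the mice that were high in S100a8. It stood at 1.33, 16.4, 4.21, 1.39 and 11.1 TPM in vehicle mice 1 to 5 and at 12.2, 3.48, 3.04, 11.2 and 3.01 TPM in MMP9 mice 1 to 5. Vehicle mouse 2 was highest, as for S100a8 and S100a9, and the groups overlapped.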
